A study of Mus musculus with 8 samples.

Results

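Gastrocnemius (GC) muscle of LONP1 mKO mice at 6 weeks of age was compared gene by gene with GC muscle of WT mice at 2 weeks of age, to ask which genes of the mutant muscle lay at the level of younger WT muscle and which lay beyond it. A gene entered when the authors' tables of both ages had tested it (status OK) and when its level was at least 1 FPKM in 1 or both of these groups. FPKM counts the fragments of a gene per kb of its exons, scaled to all mapped fragments. Of 24346 rows, 12785 had that status in both tables and 11514 passed the level.

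The series holds 8 mouse libraries, 2 in each of 4 groups: WT and LONP1 mKO at 2 weeks, and WT and LONP1 mKO at 6 weeks, all of the C57BL/6J strain. LONP1 mKO mice carry floxed Lonp1 alleles and a Cre driven by the human skeletal actin promoter, which acts in skeletal muscle after birth, so other cells of the muscle keep the gene. The study's Methods name male mice, in the RNA-seq section for 6 weeks and in the section on animals for all ages. The tables hold 1 FPKM value per group, which the authors made from both libraries, so no spread between mice and no interval can be given, and the differences below carry no test. The p-values that the authors deposited for LONP1 mKO against WT within each age were not used. Each age has its own table, normalized on its own, and 6-week LONP1 mKO differs from 2-week WT in genotype, age and table at once, which cannot be told apart in the direct difference. The 6-week WT group stands in the same table as 6-week LONP1 mKO and is given beside most results.

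LONP1 is a protease of the mitochondrial matrix that degrades damaged and misfolded proteins and helps to fold others. Trouble inside mitochondria can raise the integrated stress response, in which the transcription factor ATF4 turns on genes for the synthesis and uptake of amino acids, for the loading of tRNAs and for secreted factors such as GDF15 and FGF21. In the weeks after birth, mouse GC muscle replaces embryonic and neonatal contractile proteins with adult ones, becomes a mostly fast muscle, and lowers growth-related and connective tissue genes. In bulk tissue, fewer cells of a type and less RNA per cell cannot be told apart.

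Differences are given as log2((FPKM + 1) of 6-week LONP1 mKO over (FPKM + 1) of 2-week WT), called the log2 difference, which understates the change of genes with low levels. The median over all 11514 genes was -0.01, so centring on it moved no difference by more than that. A gene was called higher or lower at a difference of at least 2-fold on this scale. By this rule 328 genes were higher in 6-week LONP1 mKO than in 2-week WT muscle, which is 2.85% of the genes, and 413 were lower, which is 3.59%. At least 4-fold, 60 genes were higher and 53 lower. Most genes, 80.8%, lay within 1.5-fold of 2-week WT. With every group rescaled to the same FPKM sum over rows of status OK in both tables, the split was 434 higher and 332 lower, and the median of all genes moved to 0.11. Among the genes nearest to the level of 1 FPKM were 2210416O15Rik at 1.003 in the higher of the groups, which entered, and Zfp960 at 0.9995, which did not. At the 2-fold limit, Cln6 at 4.52 in WT and 10.1 in mKO counted as higher, and Irx3 at 0.350 and 1.70 did not.

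**Figure D1:**
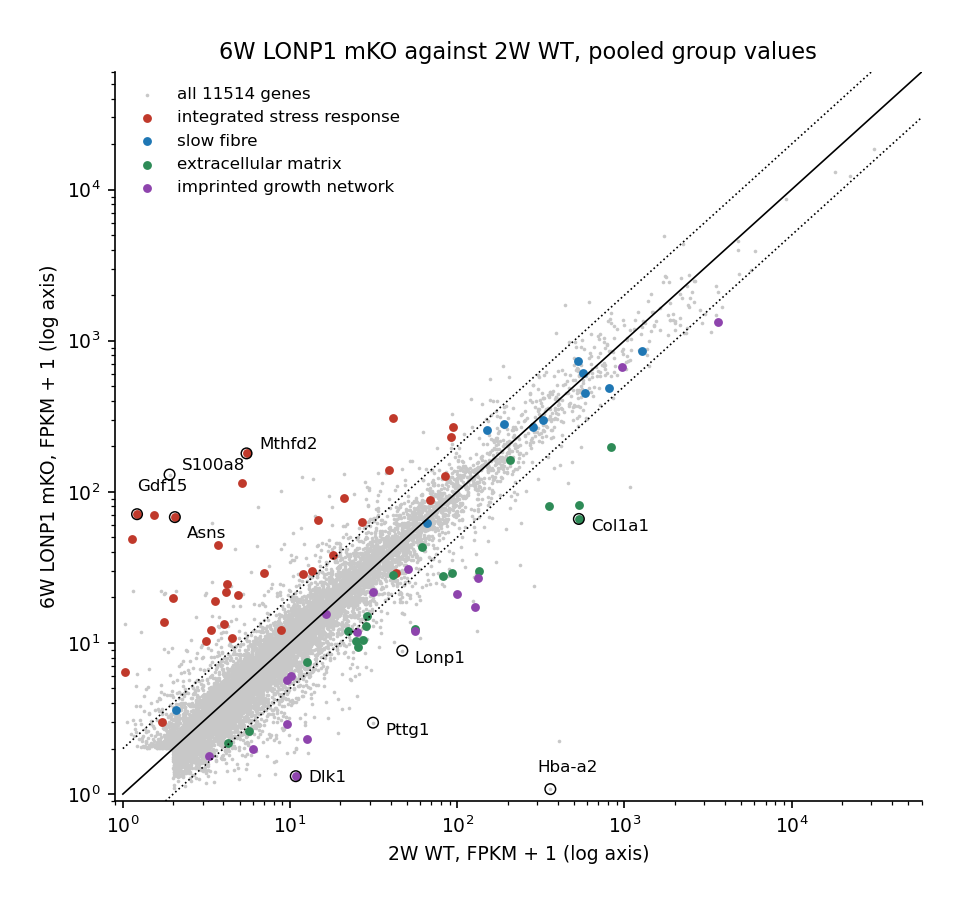
Each point is 1 of 11514 genes, with its pooled FPKM + 1 in 2-week WT on the x axis and in 6-week LONP1 mKO on the y axis, both on log axes. The solid line marks equal values and the dotted lines a 2-fold difference; stress response genes lie mostly above the upper dotted line, matrix and imprinted genes mostly near or below the lower one, and slow fibre genes between them, and circled genes are named.

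Lonp1, the deleted gene, lies on chromosome 17 of mm10 from 56614298 to 56626903. Its level in WT was 46.0 FPKM at 2 weeks and 61.4 FPKM at 6 weeks, and in LONP1 mKO it was 7.16 and 7.89 FPKM. Both LONP1 mKO groups were thus below both WT groups, and the log2 difference of 6-week LONP1 mKO from 2-week WT was -2.40. Of the genes that mark muscle fibres, 6 of 10 entered and all were abundant, from 117 FPKM for Ttn to 1534 FPKM for Des in 6-week LONP1 mKO. Acta1, Ckm, Myh4 and Tnnt3 are listed at 0 in all groups with the status that Cuffdiff uses for a failed estimate at very deeply covered genes, and this 0 is not an absence of expression.

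Of the 12 single genes farthest above 2-week WT, 6 belong to the integrated stress response. Of 34 measured genes of this response, 29 were at least 2-fold higher, beside 2.85% of all genes, and 0 were lower. The median log2 difference was 2.06, against -0.01 over all genes. Gdf15, Fgf21, Trib3, Sesn2, Cth, Slc7a3 and Mthfd1l were below 1 FPKM in 2-week WT, so they entered through 6-week LONP1 mKO only. With at least 1 FPKM required in both groups, the list median was 1.84. In WT the median difference of 6-week from 2-week muscle was -0.09 over these genes, with 2 of them at least 2-fold higher and 2 lower. Against 6-week WT their median was 2.21, and 25 of the 34 were at least 2-fold above both WT groups, beside 1.26% of all genes. Their summed level was 609 FPKM in 2-week WT, 599 FPKM in 6-week WT, 1076 FPKM in 2-week LONP1 mKO and 2285 FPKM in 6-week LONP1 mKO.

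Among the secreted factors, Gdf15, a stress cytokine that lowers appetite, was at 0.216 FPKM in 2-week WT, 0.219 FPKM in 6-week WT, 7.60 FPKM in 2-week LONP1 mKO and 70.1 FPKM in 6-week LONP1 mKO. Fgf21, a hormone of energy metabolism, was at 0.127, 0.173, 8.75 and 47.7 FPKM in the same order. Both were near 0 in WT muscle at either age and high in LONP1 mKO, higher at 6 than at 2 weeks. Among the enzymes, Mthfd2, of mitochondrial one-carbon metabolism, was at 4.49, 3.27, 50.3 and 179 FPKM. Asns, which makes asparagine, was at 1.05, 1.01, 15.2 and 67.0 FPKM. Psat1, of serine synthesis, was at 4.13, 1.58, 26.2 and 114 FPKM. The log2 differences from 2-week WT were 5.87 for Gdf15, 5.43 for Fgf21, 5.03 for Mthfd2, 5.05 for Asns and 4.49 for Psat1.

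Trib3, a pseudokinase that restrains ATF4, had a log2 difference of 5.50, with 0.545 FPKM in 2-week WT, 0.817 FPKM in 6-week WT and 69.1 FPKM in 6-week LONP1 mKO. The regulators themselves were already expressed in WT muscle and differed less. Atf4 was at 90.3 FPKM in 2-week WT, 132 FPKM in 6-week WT and 228 FPKM in 6-week LONP1 mKO, Atf5 at 40.3, 63.1 and 307 FPKM, and Ddit3, which encodes CHOP, at 19.9, 19.4 and 90.3 FPKM. Amino acid transporters were higher as well, with log2 differences of 3.58 for Slc7a5, 2.64 for Slc7a3, 2.14 for Slc3a2 and 1.86 for Slc7a1 from 2-week WT, and of 4.17, 2.68, 1.70 and 2.55 from 6-week WT. The genes of the list that were not at least 2-fold higher were Cebpb at 0.59, Ddit4 at 0.35, Psph at 0.46, Mthfd1l at 0.79 and Atf3 at -0.58. Atf3, a stress factor, was at 42.1 FPKM in 2-week WT, 6.06 FPKM in 6-week WT and 27.9 FPKM in 6-week LONP1 mKO, so the mutant level was above WT of its own age and below younger WT. Vldlr, a lipoprotein receptor, was 1.27 above 2-week WT but -0.22 from 6-week WT.

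The cytosolic aminoacyl-tRNA synthetases, which load tRNAs and many of which ATF4 is known to induce, differed by less. Of 20 genes, 8 were at least 2-fold higher, beside 2.85% of all genes, and 0 lower. The median log2 difference was 0.93 from 2-week WT and 0.67 from 6-week WT, and 19 lay above 0, as did 49.3% of all genes. Gars, for glycine, went from 26.9 FPKM in 2-week WT and 36.2 FPKM in 6-week WT to 116 FPKM in 6-week LONP1 mKO. Sars, for serine, was at 31.9, 35.6 and 86.1 FPKM in these groups, and Lars, for leucine, at 13.7, 14.9 and 43.8 FPKM. At the other end Farsa, a subunit of the phenylalanine enzyme, had a log2 difference of -0.15 and Hars, for histidine, 0.08.

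The promoters of these genes were searched for TGATGNAA, where N is any base, on both strands, which is the core of the element that ATF4 binds together with C/EBP partners. The window was the RefSeq sequence of build GRCm38.p6 from 250 bases before to 50 bases after the gene start, and 27025 genes had a window, of which 4.51% held the letters. Of the 11514 genes compared, 8785 were matched by symbol and 2.66% of these held them. Among the stress response genes 9 of 29 matched genes held them, and among the tRNA synthetases 5 of 12. Of the genes at least 2-fold above both WT groups, 16 of 110 matched genes held them. These include genes already counted in the 2 lists, such as Asns, Fgf21, Trib3 and Gars. Of the genes below both, 0 of 21 held them, which is near the 2.66% of the genes compared. Both lists hold genes that ATF4 is known to induce, so their shares may follow in part from how the lists were chosen. A match is a description of the letters only. The 9 stress response genes were Asns, Atf3, Chac1, Fgf21, Nupr1, Pck2, Pycr1, Trib3 and Vldlr, and in Trib3 the letters lie after the gene start. Atf3 and Vldlr, which were not highest in 6-week LONP1 mKO, hold them as well. The stretches of the other 6 are shown as examples in genes that were highest there, in the direction of the gene, with the 8 letters in capitals.
Asns: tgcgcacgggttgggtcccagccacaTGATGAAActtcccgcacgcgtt
Chac1: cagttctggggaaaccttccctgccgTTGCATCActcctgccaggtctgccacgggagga
Fgf21: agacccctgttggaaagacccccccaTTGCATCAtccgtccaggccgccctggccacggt
Nupr1: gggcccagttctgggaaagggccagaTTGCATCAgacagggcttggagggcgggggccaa
Pck2: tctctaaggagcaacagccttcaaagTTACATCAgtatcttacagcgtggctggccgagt
Pycr1: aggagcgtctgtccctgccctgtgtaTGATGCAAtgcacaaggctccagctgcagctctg

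These stretches lie at chr6:7693210-7693258 on the minus strand for Asns, chr2:119351023-119351082 on the plus strand for Chac1, chr7:45615596-45615655 on the minus strand for Fgf21, chr7:126625547-126625606 on the minus strand for Nupr1, chr14:55540137-55540196 on the plus strand for Pck2 and chr11:120643818-120643877 on the minus strand for Pycr1. The letters begin 23 bases before the gene start in Asns and between 103 and 193 bases before it in the other 5 genes. Chac1, which breaks down glutathione, was at 38.2 FPKM in 2-week WT, 70.3 FPKM in 6-week WT and 139 FPKM in 6-week LONP1 mKO. Nupr1, a stress-induced chromatin protein, was at 25.8, 18.5 and 62.0 FPKM in these groups. Pck2, the mitochondrial PEP carboxykinase, was at 3.15, 2.02 and 20.6 FPKM, and Pycr1, of proline synthesis, at 2.14, 1.33 and 9.38 FPKM. These 4 genes, like Asns and Fgf21, were highest in 6-week LONP1 mKO.

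**Figure D2:**
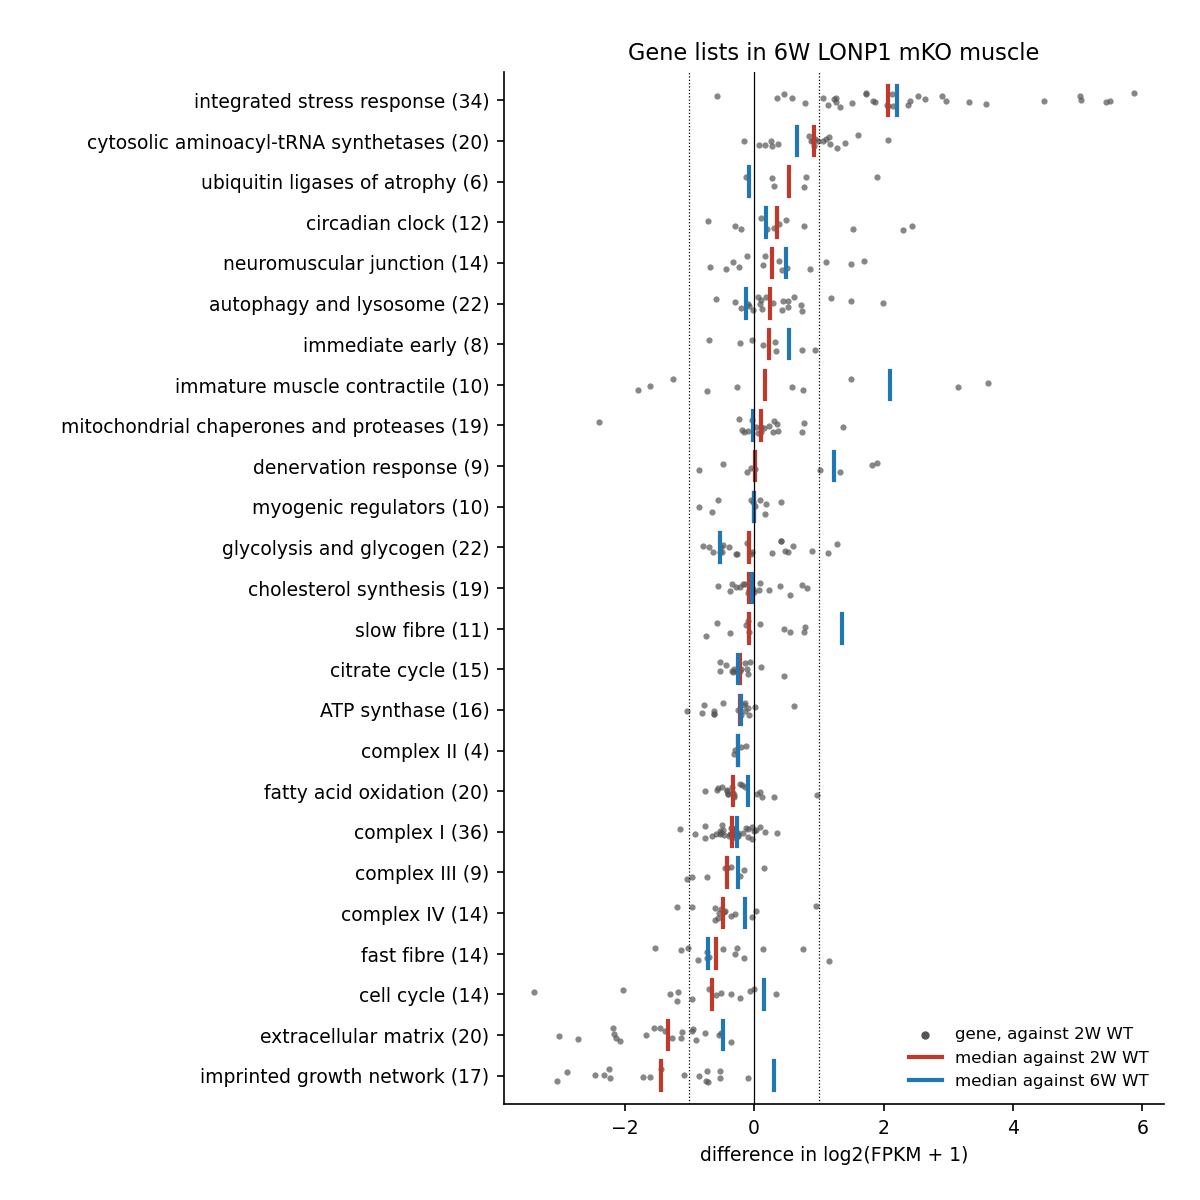
Gene lists, each with its number of measured genes, ordered by the median log2 difference of 6-week LONP1 mKO from 2-week WT. Grey points are single genes against 2-week WT, red bars the median against 2-week WT and blue bars the median against 6-week WT; red and blue lie close together for the stress response and far apart for the slow fibre, immature contractile and imprinted lists.

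Other genes were among those farthest from 2-week WT. S100a8, a calcium-binding protein of neutrophils, had the highest log2 difference of a single symbol, 6.10, at 0.903 FPKM in 2-week WT, 1.70 FPKM in 6-week WT, 1.57 FPKM in 2-week LONP1 mKO and 129 FPKM in 6-week LONP1 mKO. Its partner S100a9 was at 0.671 FPKM in 2-week WT, 0.857 FPKM in 6-week WT and 1.14 FPKM in 6-week LONP1 mKO. The neutrophil markers Ngp, Camp, Ltf and Retnlg, which were not tested by the authors in at least 1 table, were at 0.0627, 0.198, 0.0699 and 0.579 FPKM in 6-week LONP1 mKO and at most 0.0164, 0.140, 0.0171 and 0.185 FPKM in the WT groups. All 5 were thus highest in 6-week LONP1 mKO, at levels near 1 FPKM or lower, and the part of neutrophils in the S100a8 value was not tested. Ostn, a peptide secreted by muscle, was at 2.40, 11.8, 4.27 and 61.4 FPKM in 2-week WT, 6-week WT, 2-week and 6-week LONP1 mKO, and Cdsn, a protein of skin cell junctions, at 0.151, 0.0719, 1.13 and 20.9 FPKM. Soat2, which esterifies cholesterol, was at 0.0250, 0.0530, 2.30 and 12.4 FPKM. Inmt, a methyltransferase, had a log2 difference of 3.72 but was at 22.9 FPKM in 6-week WT and 21.2 FPKM in 6-week LONP1 mKO, so it had the level of WT muscle of the same age. A row of the joined symbols Rps27 and Rps27rt was at 1.76 and 2.27 FPKM in the WT groups and 82.8 and 52.1 FPKM in 2-week and 6-week LONP1 mKO, but fragments of such near copies can be split between rows and this value is uncertain.

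Genes that were at least 2-fold below both WT groups were fewer, 31, or 0.269% of all genes. Besides Lonp1 they included Pttg1, which holds sister chromatids together until they separate, at 30.4 FPKM in 2-week WT, 30.3 FPKM in 6-week WT, 45.3 FPKM in 2-week LONP1 mKO and 1.97 FPKM in 6-week LONP1 mKO. Its level was low in 6-week LONP1 mKO only. BC048679 was at 7.06, 11.7, 1.37 and 0.625 FPKM in this order, low in both LONP1 mKO groups. Nrep was at 33.6 FPKM in 6-week LONP1 mKO and at least 105 FPKM in the other groups. Cers1, a ceramide synthase of muscle and brain, was at 8.51 FPKM in 2-week WT, 20.9 FPKM in 6-week WT and 2.24 FPKM in 6-week LONP1 mKO. Gdf11, a secreted relative of myostatin, was at 4.37, 4.22 and 0.780 FPKM, and Gbp10 at 2.52, 3.12 and 0.195 FPKM in the same 3 groups.

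To place 6-week LONP1 mKO between younger and older WT, genes that differed at least 2-fold between the WT groups were sorted by the nearer WT level. Between 2 and 6 weeks 388 genes fell in WT. For 225 of these, 58.0%, the 6-week LONP1 mKO level was within 1.5-fold of 6-week WT, for 94, 24.2%, it was within 1.5-fold of 2-week WT, and for 34 it lay between them. For 8 it was more than 1.5-fold above 2-week WT and for 27 more than 1.5-fold below 6-week WT. Between the same ages 356 genes rose in WT. For 157 of these, 44.1%, 6-week LONP1 mKO was within 1.5-fold of 6-week WT, for 126, 35.4%, within 1.5-fold of 2-week WT, for 61 between, for 2 below 2-week WT and for 10 above 6-week WT. Which set had the larger share near 2-week WT depended on the scaling, since with every group rescaled to the same FPKM sum the shares were 29.4% of those that fell and 26.2% of those that rose. The comparisons with 2-week and with 6-week WT share the 6-week LONP1 mKO value. The 6-week groups share a table and were sequenced in 1 lane by the study's Methods, and for the 2-week group the lane is not given in the sources used here, so nearness to either WT group does not stand on equal footing.

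**Figure D3:**
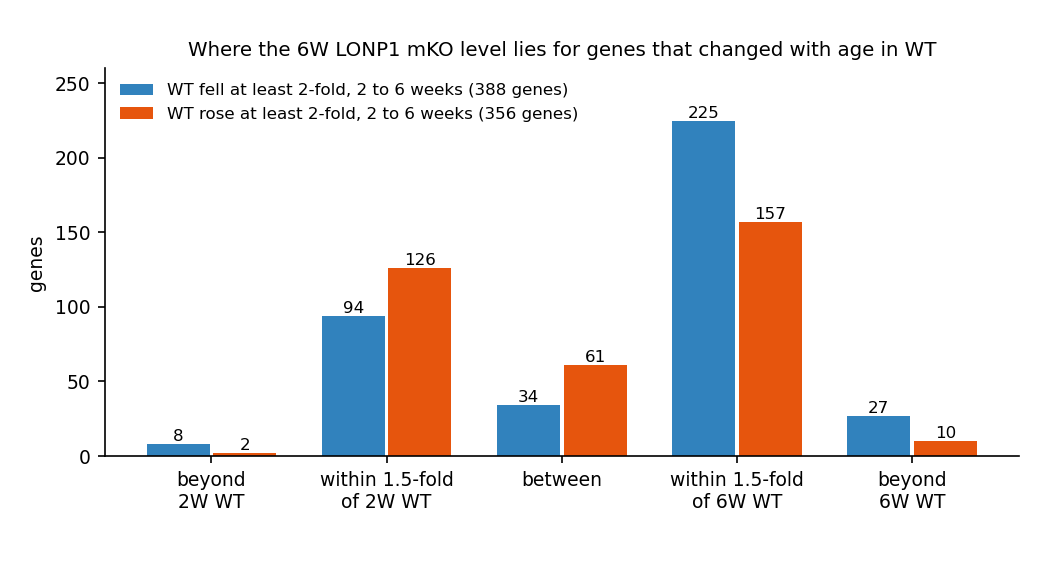
Number of genes, of 388 that fell and 356 that rose at least 2-fold in WT from 2 to 6 weeks, by where the 6-week LONP1 mKO level lies. In both sets the bar of genes within 1.5-fold of 6-week WT is the highest, and 94 and 126 genes are within 1.5-fold of 2-week WT.

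Of the 50 genes that fell at least 4-fold in WT, 7 were within 1.5-fold of 2-week WT in 6-week LONP1 mKO. Myog, or myogenin, a transcription factor of muscle differentiation, was at 45.8 FPKM in 2-week WT, 50.6 FPKM in 2-week LONP1 mKO, 5.26 FPKM in 6-week WT and 44.1 FPKM in 6-week LONP1 mKO. Tmem8c, or myomaker, which lets muscle cells fuse, was at 8.18, 6.82, 0.697 and 5.22 FPKM in the same order. Myh3, the embryonic myosin heavy chain, was at 8.74, 2.27, 0.630 and 7.13 FPKM, and Atp1b4 at 8.25, 27.2, 1.09 and 9.19 FPKM. The matrix genes Postn (periostin) and Aspn (asporin) were at 27.1 and 12.8 FPKM in 6-week LONP1 mKO, beside 40.1 and 19.5 FPKM in 2-week WT and 5.10 and 3.97 FPKM in 6-week WT. The seventh was Atf3. Of the 44 genes that rose at least 4-fold in WT, 5 were within 1.5-fold of 2-week WT. Odc1, the first enzyme of polyamine synthesis, was at 40.7 FPKM in 2-week WT, 42.1 FPKM in 2-week LONP1 mKO, 177 FPKM in 6-week WT and 54.5 FPKM in 6-week LONP1 mKO. Amd2, a copy of the S-adenosylmethionine decarboxylase of the same pathway, was at 28.7, 26.6, 504 and 25.4 FPKM, and its value is uncertain because copies share reads. Kcng4, a potassium channel subunit, was at 5.97, 5.82, 32.3 and 4.75 FPKM, Ccdc85c at 5.05, 5.29, 29.6 and 6.81 FPKM, and the pseudogene Hmga2-ps1 at 11.6, 8.12, 62.2 and 8.04 FPKM.

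The genes of slow, oxidative fibres lay away from WT of their own age. Of 11 genes, 1 was within 1.5-fold of 6-week WT, beside 86.5% of all genes, and 8 were within 1.5-fold of 2-week WT, a share near the 80.8% of all genes. The median log2 difference was -0.08 from 2-week WT and 1.36 from 6-week WT, while WT itself had a median of -1.33 from 2 to 6 weeks. Myh7, the slow myosin heavy chain, was at 285 FPKM in 2-week WT, 89.3 FPKM in 2-week LONP1 mKO, 79.5 FPKM in 6-week WT and 269 FPKM in 6-week LONP1 mKO. Tnni1, the slow troponin I, was at 326, 101, 102 and 297 FPKM, and Tnnc1, the slow troponin C, at 531, 213, 206 and 732 FPKM in the same order. For these genes 2-week WT and 6-week LONP1 mKO were high, and 2-week LONP1 mKO and 6-week WT low. Casq2, the cardiac and slow calsequestrin, was at 65.4, 60.3, 16.8 and 61.4 FPKM, so 6-week WT alone was low. Atp2a2, the slow calcium pump, and Pln, which inhibits it, had log2 differences of 0.78 each from 2-week WT.

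Most fast fibre genes lay below younger WT by any amount, and 3 of 14 lay above it, beside 49.3% of all genes. Of 14 measured, 3 were at least 2-fold lower and 1 higher, beside 3.59% and 2.85% of all genes, with a median log2 difference of -0.59 from 2-week WT and -0.72 from 6-week WT. Casq1, the fast calsequestrin, was at 3311 FPKM in 2-week WT, 2079 FPKM in 6-week WT and 1146 FPKM in 6-week LONP1 mKO. Stac3, of excitation-contraction coupling, was at 219, 199 and 98.997 FPKM, and Mybpc2, a fast myosin-binding protein, at 2266, 1879 and 1117 FPKM. The gene that was higher, Mss51, a mitochondrial protein of fast muscle, was at 12.7, 320 and 29.6 FPKM, so it rose in WT and was above 2-week WT but far from 6-week WT in LONP1 mKO. Of the fast myosin heavy chains, Myh1 (type 2X) was at 816, 838 and 1382 FPKM and Myh2 (type 2A) at 643, 447 and 577 FPKM. Since 6 fast genes were not measured in both tables, the summed level of 83819 FPKM in 2-week WT and 52423 FPKM in 6-week LONP1 mKO covers only the other 14.

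**Figure D4:**
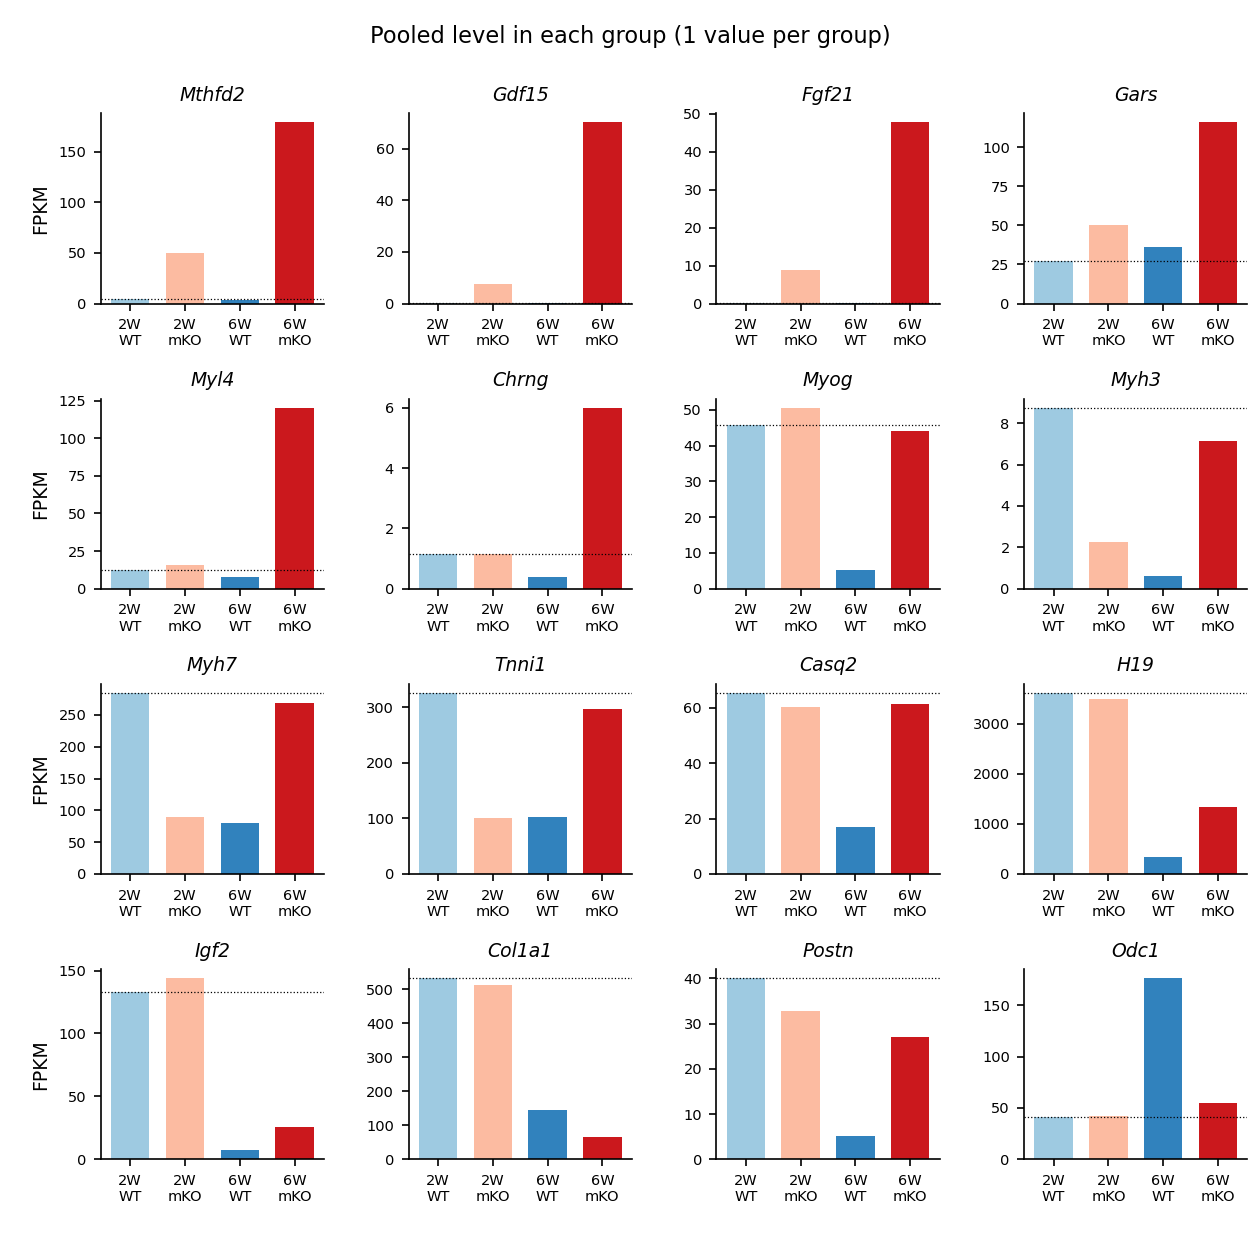
Pooled FPKM in the 4 groups for 16 genes, 1 value per group on linear axes that start at 0, with a dotted line at the 2-week WT level. The stress response genes Mthfd2, Gdf15 and Fgf21 and the tRNA synthetase gene Gars exceed both WT groups in 6-week LONP1 mKO. In that group Myog, Myh3, Myh7, Tnni1 and Casq2 stand at or near the dotted line, and H19, Igf2 and Col1a1 below it. Odc1 is close to it while 6-week WT is high.

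The genes of the list for immature muscle, of which 7 of 10 fell at least 2-fold in WT from 2 to 6 weeks, split 3 ways. Of the 10, 3 were higher than in 2-week WT, beside 2.85% of all genes, 3 lower, beside 3.59%, and 4 within 2-fold. Myl4, the embryonic and atrial myosin light chain, went beyond younger WT, at 12.7 FPKM in 2-week WT, 15.5 FPKM in 2-week LONP1 mKO, 7.71 FPKM in 6-week WT and 120 FPKM in 6-week LONP1 mKO. Ankrd1, a stretch-responsive titin-binding protein, was at 5.45, 16.4, 5.41 and 78.2 FPKM in the same order, and Csrp3, the muscle LIM protein, at 202, 155, 354 and 574 FPKM. None of these 3 had fallen 2-fold in WT, where Ankrd1 had like levels at both ages and Csrp3 was higher at 6 weeks. The list median was 0.16 from 2-week WT and 2.10 from 6-week WT, beside -0.01 and -0.03 over all genes. Within 2-fold of 2-week WT were Myh3, described above, Myh8, Tnnt2 and Nes, the intermediate filament protein nestin. Myh8, the perinatal myosin, was at 5.40 FPKM in 2-week WT, 0.785 FPKM in 6-week WT and 9.78 FPKM in 6-week LONP1 mKO. Tnnt2, the cardiac troponin T, was at 10.05, 2.21 and 15.6 FPKM in these groups. Nes was at 18.3 FPKM in 2-week WT, 6.88 FPKM in 6-week WT and 10.6 FPKM in 6-week LONP1 mKO, and was the 1 gene of the list within 1.5-fold of 6-week WT. Actc1, the cardiac actin, was at 3521 FPKM in 2-week WT, 799.7 FPKM in 6-week WT and 1475 FPKM in 6-week LONP1 mKO, so it lay between the ages. Sln, which inhibits the calcium pump, and Myl6b also lay between them, with 34.3 and 31.0 FPKM in 6-week LONP1 mKO.

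Genes of the neuromuscular junction and of the response to denervation were within 2-fold of younger WT or higher. Of 14 junction genes 3 were higher, beside 2.85% of all genes, and 0 lower, with a median log2 difference of 0.28 from 2-week WT and 0.49 from 6-week WT. Chrng, the fetal acetylcholine receptor subunit, was at 1.15 FPKM in 2-week WT, 1.16 FPKM in 2-week LONP1 mKO, 0.405 FPKM in 6-week WT and 6.00 FPKM in 6-week LONP1 mKO. Chrne, the adult subunit that replaces it, was at 20.7, 14.9, 8.98 and 12.5 FPKM. The other receptor subunits Chrna1, Chrnb1 and Chrnd were highest in 6-week LONP1 mKO, with log2 differences of 0.87, 0.14 and 1.11 from 2-week WT, and Musk, the junction kinase, was 1.50 above it. Of 9 denervation genes, 4 were higher, beside 2.85% of all genes, and 0 were lower. The other 5, of which 4 lay below 0, were Hdac4 at 0.02, Myog at -0.05, Hdac9 at -0.11, Nnmt at -0.47 and Myod1 at -0.86. The median log2 difference was 0.02 from 2-week WT and 1.23 from 6-week WT. The first median depended on the filter, at 1.33 among genes of at least 5 FPKM in either group and -0.02 among those of at least 1 FPKM in both, and it was -0.04 with the same upper quartile in every group. Gadd45a was at 36.7 FPKM in 2-week WT, 18.4 FPKM in 6-week WT and 132 FPKM in 6-week LONP1 mKO, and Cdkn1a, a cell cycle inhibitor, at 28.0, 22.7 and 107 FPKM. Ncam1, an adhesion molecule, was at 4.32, 2.47 and 12.4 FPKM, and Runx1 at 0.916, 0.651 and 2.88 FPKM. Of 10 myogenic regulators 0 passed 2-fold, which is near the 6.44% of all genes past it in either direction. Of the same 10, 8 were within 1.5-fold of 2-week WT, a share near the 80.8% of all genes.

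The imprinted genes that promote or restrain growth early in life were below 2-week WT. Of 17 measured, 10 were lower, beside 3.59% of all genes, and 0 higher, with a median log2 difference of -1.44. WT muscle had a median of -2.36 from 2 to 6 weeks, and 6-week LONP1 mKO was 0.31 above 6-week WT. H19, a noncoding RNA, was at 3619 FPKM in 2-week WT, 346 FPKM in 6-week WT and 1332 FPKM in 6-week LONP1 mKO, and its neighbour Igf2, a growth factor, at 133, 7.45 and 25.8 FPKM. Both lay between the ages. Grb10, an inhibitor of insulin signalling, was at 49.9, 8.82 and 29.9 FPKM, and Meg3 at 98.8, 7.68 and 20.0 FPKM. Dlk1, Cdkn1c and Mest were instead at the 6-week WT level, for example Cdkn1c, a cell cycle inhibitor, at 127, 20.8 and 16.2 FPKM.

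Extracellular matrix genes were mostly below younger WT. Of 20, 13 were at least 2-fold lower than 2-week WT, beside 3.59% of all genes, and 0 higher, with a median log2 difference of -1.33. The median from 6-week WT was -0.48, and 12 of the 20 were within 1.5-fold of it, beside 86.5% of all genes. By any amount 15 lay below both WT groups, beside 31.8% of all genes, but only Col1a1 was at least 2-fold below both. Col1a1 and Col1a2, the chains of type I collagen, were at 533 and 535 FPKM in 2-week WT, 145 and 155 FPKM in 6-week WT, and 65.2 and 80.5 FPKM in 6-week LONP1 mKO. Sparc, a collagen-binding protein, was at 834, 341 and 198 FPKM in these groups. Eln, or elastin, was at 135, 29.5 and 29.0 FPKM, the level of 6-week WT. Postn, described above, was more than 4-fold above 6-week WT, and Bgn, or biglycan, was at 60.3, 34.1 and 42.2 FPKM. Markers of other cell types were examined beside them. All 8 endothelial markers lay below 2-week WT, 2 of them at least 2-fold, beside 3.59% of all genes, with a summed level of 239 FPKM in 2-week WT, 172 FPKM in 6-week WT and 124 FPKM in 6-week LONP1 mKO. The fibroadipogenic markers summed to 307, 356 and 252 FPKM in these groups, with 1 of 7 at least 2-fold lower, and the tendon markers to 220, 182 and 137 FPKM, with 1 of 6 lower. The part of cell content in the matrix result was not tested.

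Most genes of mitochondrial respiration were slightly below younger WT. The median log2 difference was -0.34 for the 36 complex I genes, -0.25 for the 4 of complex II, -0.42 for the 9 of complex III, -0.49 for the 14 of complex IV and -0.23 for the 16 of ATP synthase, and the median of all genes was -0.01. From 6-week WT the medians were -0.26, -0.25, -0.24, -0.14 and -0.20 in this order. Of these 79 genes 4, or 5.06%, were at least 2-fold lower, a share near the 3.59% of all genes, and 0 were higher. The lower ones were Ndufa3, Uqcrh, Cox7a1 and Atp5h. Cox7a1, the muscle isoform of a complex IV subunit, was at 3826 FPKM in 2-week WT, 2768 FPKM in 6-week WT and 1682 FPKM in 6-week LONP1 mKO. Cox6a2, another muscle isoform of complex IV, stood apart at 2254, 2372 and 4379 FPKM, a log2 difference of 0.96. Genes of fatty acid oxidation and of the citrate cycle had medians of -0.32 and -0.22. Of these 35 genes 0 were past 2-fold, beside 6.44% of all genes past it in either direction. Of the mitochondrial chaperones and proteases besides Lonp1, Hspa9 (mortalin), which pulls proteins into the matrix, was higher, at 157 FPKM in 2-week WT, 206 FPKM in 6-week WT and 405 FPKM in 6-week LONP1 mKO. The median of this list of 19 was 0.11, and the protease subunits Clpp and Clpx were at 0.28 and -0.19.

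Fbxo32 (atrogin-1), a ubiquitin ligase of atrophy, was at 11.1 FPKM in 2-week WT, 56.2 FPKM in 6-week WT and 44.0 FPKM in 6-week LONP1 mKO. It was the only 1 of 6 such ligases that was at least 2-fold higher, beside 2.85% of all genes. Of 22 autophagy and lysosome genes 3 were higher, beside 2.85% of all genes. Gabarapl1 and Map1lc3a, of the autophagosome, were also high in 6-week WT, at 65.4 and 339 FPKM beside 80.9 and 396 FPKM in 6-week LONP1 mKO. Ctsl, a lysosomal protease, was at 61.3 FPKM in 2-week WT, 66.7 FPKM in 6-week WT and 246 FPKM in 6-week LONP1 mKO, beyond both. Of 22 genes of glycolysis and glycogen 2 were higher, beside 2.85% of all genes, the glucose transporter Slc2a4 at 1.14 and the glycogen branching enzyme Gbe1 at 1.28, and the median was -0.08 from 2-week WT and -0.53 from 6-week WT. Cholesterol synthesis had 0 of 19 past 2-fold, which is near the 6.44% of all genes past it in either direction. Of 22 cell cycle genes in the list 14 were measured. Of these 14, 5 were lower, beside 3.59% of all genes, namely Pttg1, Ccnd1, Ccnb2, Birc5 and Cdc20. The last 3 of these were below 1 FPKM in both 6-week groups, so they entered through 2-week WT only. Genes left out by status or level, such as Top2a at 1.69 and 0.252 FPKM, all had lower values in 6-week LONP1 mKO than in 2-week WT. Of 12 clock genes 3 were higher, beside 2.85% of all genes, with Dbp at 10.7, 61.4 and 56.5 FPKM and Ciart at 1.73, 4.51 and 13.8 FPKM, and the time of day of collection is not given in the sources used here. Of 8 immediate early genes 0 passed 2-fold, which is near the 6.44% of all genes, and Fos was at 2.68, 2.62 and 6.07 FPKM.

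Markers of cells outside the fibre were examined as well, although their RNA levels do not give the number of cells. All 4 measured erythroid markers were lower than in 2-week WT, with a summed level of 787 FPKM in 2-week WT, 468 FPKM in 2-week LONP1 mKO, 58.5 FPKM in 6-week WT and 34.5 FPKM in 6-week LONP1 mKO. The lowest log2 difference of all single symbols, -8.39, was that of the haemoglobin gene Hba-a2, at 360 FPKM in 2-week WT and 0.0790 FPKM in 6-week LONP1 mKO, and its value is uncertain because it has near copies and because the tables give it different positions. The row of the joined symbols Hba-a1 and Hba-a2, for which the same holds, was at 403 FPKM in 2-week WT, 12.6 FPKM in 6-week WT and 1.24 FPKM in 6-week LONP1 mKO, Hbb-b2 at 287, 32.5 and 22.6 FPKM, and Hbb-bs at 131, 22.5 and 10.9 FPKM. Beside the marker counts that follow, 2.85% of all genes were at least 2-fold higher and 3.59% lower. Schwann cell markers had 3 of 9 lower and 0 higher, with Mbp, the myelin basic protein, at 68.6 FPKM in 2-week WT, 219.8 FPKM in 2-week LONP1 mKO, 45.2 FPKM in 6-week WT and 31.5 FPKM in 6-week LONP1 mKO. Of 9 macrophage markers 1 was higher and 1 lower. Cd68 was at 2.69 and 12.02 FPKM, while Adgre1, Csf1r and Cd163 were at 1.22, 5.04 and 1.88 FPKM in 2-week WT and 0.938, 3.97 and 1.95 FPKM in 6-week LONP1 mKO. Of 6 adipocyte markers 3 were higher and 1 lower, and the 3, Cfd, Cidec and Retn, were within 1.5-fold of 6-week WT. Smooth muscle markers had 1 of 5 lower, Acta2, and satellite cell markers 0 of 3 past 2-fold. Of the neutrophil markers 2 were measured, S100a8 and S100a9, above. The part of these cells in the differences was not tested.

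The 4 genes of the Y chromosome that were measured were at 66.5 FPKM in sum in 2-week WT, 78.0 FPKM in 2-week LONP1 mKO, 35.3 FPKM in 6-week WT and 35.4 FPKM in 6-week LONP1 mKO. Xist, which is expressed from an inactive X chromosome and had not been tested by the authors at 2 weeks, was at 6.11 FPKM in 6-week LONP1 mKO and at most 0.00535 FPKM in the other groups. The Y chromosome genes were present in this group at the summed level of 6-week WT. Whether both 6-week LONP1 mKO mice were male cannot be told from the pooled value, and the part of sex in the differences was not tested.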

How the data were processed

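RNA-seq of GC muscle was used from 8 libraries, 2 per group, mapped to groups by the sample titles. Per the labels, the authors' processing notes name bcl2fastq, FastQC 0.11.3, TopHat2 2.0.14 and Cufflinks 2.2.1 and the mm10 genome. The authors deposited 1 FPKM value per gene and group, made from both libraries, in 2 tables of the Cuffdiff layout. The gene model and the scaling between libraries are not given in the sources used here. The study's Methods state a mean number of read pairs per library, but the tables hold no fragment counts and the depth of each library is not given in the sources used here, so intervals were not given. The deposited comparison columns, which hold the authors' fold changes and p-values, were not used.

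Both tables were joined on the gene symbol, and rows with status OK in both and at least 1 FPKM in 2-week WT or 6-week LONP1 mKO were kept, 17 of them with joined symbols. Levels were compared as log2(FPKM + 1), with a pseudocount of 1, in Python 3 with pandas and numpy. The calculation was tested on simulated data with known differences. With 1 value per group no SD was computed and no test was made. The genes and the 37 gene lists, written from general knowledge, were chosen with earlier results of these data known. Of 499 list genes 458 were measured, and the counts of each list are given beside its members. Named genes were Lonp1, the 12 with the highest and the 12 with the lowest log2 difference among single symbols, the 10 farthest above and the 10 farthest below both WT groups, up to 8 that fell and 8 that rose at least 4-fold in WT and lay within 1.5-fold of 2-week WT, and genes of the lists. Of the 10 farthest below both WT groups, 1 is not reported here. Start positions were written 1-based, with which 8536 of 11739 genes that end at the RefSeq position also start there. Promoter windows came from RefSeq. Alternatives were other scalings, pseudocounts, filters and fold thresholds.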

Additional observations from a re-analysis of the deposited data

Results flagged for a closer look

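In 9 of the named genes the level differed at least 2-fold between LONP1 mKO and WT at both ages, in opposite directions. Over all 11514 genes 12 did so, or 0.104%, and the other 3 were Opn1mw and 2 rows of joined symbols. Whether the ages differ in this was not tested, because each group has 1 value. At 6 weeks the log2 difference of LONP1 mKO from WT was 2.32 for Myh3, 1.74 for Myh7, 1.87 for Myl6b, 1.12 for Sln, 1.29 for Tceal7, 1.83 for Tnnc1, 1.54 for Tnni1, 1.36 for Tnnt1 and 1.41 for Tpm3. At 2 weeks it was -1.58, -1.66, -1.51, -1.04, -1.12, -1.31, -1.68, -1.49 and -1.09 for the same genes in that order. Of the 12, 8 were genes of the slow fibre and immature contractile lists, which were chosen with earlier results of these data known. In Myh7, Tnni1, Tnnc1, Tnnt1 and Tpm3 the 6-week LONP1 mKO level was within 1.5-fold of 2-week WT.

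Xist, which is no member because the authors had not tested it at 2 weeks, was at 6.11 FPKM in 6-week LONP1 mKO, above the WT groups, where it was at 0.00288 and 0.00311 FPKM.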

How the results depend on the processing

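No paired analysis was possible because the tables hold 1 value per group, and leaving out a replicate could not be run for the same reason. Counts here are in the order higher than 2-week WT, lower, above both WT groups, below both, fell in WT and near 2-week WT, rose in WT and near 2-week WT. The fold threshold moved them most, to 939, 1269, 339, 220, 418 and 538 at 1.5-fold and to 60, 53, 32, 4, 7 and 5 at 4-fold. With a pseudocount of 5 they were 178, 165, 82, 12, 31 and 81. With a pseudocount of 0.1 there were 756 lower, 94 below both and 247 that fell and lay near 2-week WT. The genes that rose in WT and lay near 2-week WT numbered 80 with the same FPKM sum and 78 with the same upper quartile. Those that fell numbered 136 and 141, so the order of these counts turned. With the same upper quartile the shares kept their main order, at 26.5% of those that fell and 30.7% of those that rose. In all, 23 of 78 alternative counts left the range of 1.5 times the main count. No list median of at least 1.5-fold and no named gene past 2-fold changed sign under the alternatives run. The stress response median ranged from 1.53 to 2.201, the matrix median from -1.47 to -1.06 and the slow fibre median from -0.15 to 0.05. The depth of each library is not given in the sources used here, each group rests on 2 libraries, and the spread between mice could not be seen.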

Other observations

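Polyamine genes were examined after the values of Odc1 and Amd2 had been seen. Smox, which oxidizes spermine, was at 28.9 FPKM in 2-week WT, 27.8 FPKM in 2-week LONP1 mKO, 354 FPKM in 6-week WT and 58.2 FPKM in 6-week LONP1 mKO. Like Odc1 it was highest in 6-week WT, but its 6-week LONP1 mKO level lay between the WT groups rather than near 2-week WT. The pseudogene Oaz1-ps was at 124, 125, 2.46 and 18.1 FPKM in the same order, while Oaz1, its parent and the antizyme that inhibits ODC1, was at 688, 676, 701 and 581 FPKM. The tables give both the same position, so fragments can be split between these rows and both values are uncertain. Srm and Sms, the spermidine and spermine synthases, were at 14.9 and 39.3 FPKM in 2-week WT, 11.2 and 57.1 FPKM in 6-week WT and 19.5 and 30.7 FPKM in 6-week LONP1 mKO. Sat1, Paox, Oaz2 and Azin1 had log2 differences of 0.42, -0.09, -0.39 and -0.34 from 2-week WT.

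Genes that fell in WT did not share 1 position in 6-week LONP1 mKO. Tceal7 was at 235 FPKM in 2-week WT, 12.4 FPKM in 6-week WT and 32.0 FPKM in 6-week LONP1 mKO. The predicted gene Gm3646 was at 18.4, 3.51 and 1.55 FPKM in these groups. Prnd, a relative of the prion protein gene, was at 11.7, 0.577 and 0.881 FPKM, close to 6-week WT. Within the matrix list, Postn stood near 2-week WT and Col1a1 below 6-week WT.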
